A study of Homo sapiens with 9 samples.

Results

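The serotonin receptor genes described here are the 10 genes HTR1A, HTR1B, HTR1D, HTR1E, HTR1F, HTR2A, HTR2B, HTR2C, HTR3A and HTR7, chosen by symbol from the 34961 genes of the deposited table. They were followed by RNA sequencing in WA09 (H9), an established line of human embryonic stem cells, here carrying EGFP, a green fluorescent reporter, knocked in at TPH2. Every library has this knock-in and is labelled with induction towards serotonin neurons. Day0 libraries were labelled human embryonic stem cells, Day21 libraries neural progenitor cells and Day42 libraries TPH2+ serotonin neurons, with 3 libraries on each day. The cells are 1 line with no unedited comparison, and the labels do not say whether the 3 libraries of a day came from separate differentiations, so a p-value covers only the differences among them, part or all of which may be technical. Nor do they say whether or how Day42 cells were sorted by the reporter.

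Serotonin receptors fall into families that differ in what they do once serotonin binds. Receptors of the HTR1 family couple to Gi/o proteins, which lower cyclic AMP and open potassium channels, and HTR1A and HTR1B act on serotonin neurons themselves as autoreceptors at the cell body and at the axon ending. Receptors of the HTR2 family couple to Gq and phospholipase C, HTR7 couples to Gs and raises cyclic AMP, and HTR3A is a subunit of the only serotonin receptor that is itself an ion channel.

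Promoter sequence is shown for 3 of the genes whose counts carry the results below, HTR1A and HTR1B, which were counted in every Day0 library and in no Day42 library, and HTR1D, which was counted in every Day21 library. Each line is the 250 bases before the RefSeq gene start on GRCh38.p14, read 5′ to 3′ along the gene, which lies on the minus strand in all 3 cases. Capitals mark a GC box, GGGCGG on either strand, and no TATAAA or CCAAT box was found on either strand in these windows.
HTR1A (chr5:63962446-63962695, minus strand): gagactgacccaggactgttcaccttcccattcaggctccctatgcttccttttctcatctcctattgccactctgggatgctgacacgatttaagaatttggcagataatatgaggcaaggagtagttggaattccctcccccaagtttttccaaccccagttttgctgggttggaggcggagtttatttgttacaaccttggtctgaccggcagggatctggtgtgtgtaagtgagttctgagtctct
HTR1B (chr6:77463492-77463741, minus strand): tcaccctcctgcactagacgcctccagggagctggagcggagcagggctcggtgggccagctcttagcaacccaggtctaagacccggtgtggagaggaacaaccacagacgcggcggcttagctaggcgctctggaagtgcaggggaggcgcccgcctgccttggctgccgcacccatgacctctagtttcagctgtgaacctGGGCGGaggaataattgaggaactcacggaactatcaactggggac
HTR1D (chr1:23217503-23217752, minus strand): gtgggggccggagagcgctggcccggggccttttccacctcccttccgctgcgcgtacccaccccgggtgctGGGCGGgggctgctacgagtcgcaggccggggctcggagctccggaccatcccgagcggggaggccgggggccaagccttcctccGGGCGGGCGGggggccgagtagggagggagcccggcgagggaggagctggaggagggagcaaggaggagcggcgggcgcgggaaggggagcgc
The HTR1A window holds 3 CpG dinucleotides and no GC box, the HTR1B window 13 CpG and 1 GC box, and the HTR1D window 27 CpG and 3 GC boxes, of which a pair overlap. The median over 35116 RefSeq promoters of the same length was 11 CpG. A GC box was present in 42.6% of those promoters, a TATA box in 10.7% and a CCAAT box in 32% of them. The HTR1D start used by RefSeq lies upstream of the span that the table gives for the gene, and the data hold no measurement of promoter activity. A motif match describes the letters of the window and is no evidence that a factor binds there. RefSeq promoter entries were matched for all of the 10 genes except HTR2B and HTR3A.

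On GRCh38, the table places HTR1A on chromosome 5 at 63957874-63962507 (minus strand, ENSG00000178394), HTR1B on chromosome 6 at 77460924-77463491 (minus, ENSG00000135312) and HTR1D on chromosome 1 at 23191895-23194729 (minus, ENSG00000179546). HTR1E lies on chromosome 6 at 86937528-87016679 (plus, ENSG00000168830) and HTR1F on chromosome 3 at 87990696-87993835 (plus, ENSG00000179097). HTR2A lies on chromosome 13 at 46831550-46897076 (minus, ENSG00000102468), HTR2B on chromosome 2 at 231108230-231125042 (minus, ENSG00000135914) and HTR2C on chromosome X at 114584078-114910061 (plus, ENSG00000147246). HTR3A lies on chromosome 11 at 113974881-113990313 (plus, ENSG00000166736) and HTR7 on chromosome 10 at 90740823-90857698 (minus, ENSG00000148680). In GENCODE release 29, HTR1B, HTR1D, HTR1F, HTR3A and HTR7 overlap no other gene model. HTR2C overlaps 10 models, 8 of them on its own strand, and HTR1A and HTR1E each overlap 1 model on their own strand. HTR2A and HTR2B each overlap 1 gene on the opposite strand. Counts of these 5 overlapping genes are uncertain, because the sources used here do not give the strand setting of the authors' counting.

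The total count of a library lay between 58526466 and 69658328, so depth was similar on all days. Genes with any count numbered 22198 to 24359 in the Day0 libraries and 24581 to 24741 in the Day21 libraries, but 16077, 17101 and 10797 in the Day42 libraries. Low counts of the table pile up at multiples of 4, so the limit allowed by a count of 0 was taken as 3 such steps, or 12 counts per library, and covers counting error only. The labelled cell types were checked against marker lists. All 6 pluripotency markers exceeded 12 counts in every Day0 library and none did in any Day42 library. All 6 progenitor markers exceeded it in every Day21 library, and 5 of 6 serotonin neuron markers exceeded it in every Day42 library, with the serotonin transporter SLC6A4 at 0 in all 3 Day42 libraries. Of the 6 serotonin neuron markers, 3 also exceeded it in every Day0 and Day21 library. The 6 summed to 0.565 to 1.94 FPKM in those libraries and to 591 to 649 FPKM on Day42. Progenitor markers above it numbered 4 in every Day0 library, and pluripotency markers 3 or 4 in the Day21 libraries. All 6 fibroblast or mesenchyme markers exceeded it in every Day21 library, at a sum of 106 to 113 FPKM. Progenitor markers summed to 91.7 to 117 FPKM there, against 57.8 to 83.4 FPKM in the Day0 libraries. FABP7 alone stood at 51.7 to 90.7 FPKM on Day21 and at 40.1 to 71.9 FPKM on Day0. All 6 general neuron markers also exceeded 12 counts in every Day21 library, at a sum of 79.3 to 101 FPKM. Of the catecholamine neuron markers, TH stood at 8.2, 10.2 and 0 FPKM in the Day42 libraries, where DBH and SLC6A3 were at 0. One Day42 library stood apart in that the summed FPKM of the progenitor markers was 0.0115 in replicate 3, against 9.71 and 13.0 in replicates 1 and 2. The serotonin neuron marker SLC18A2 was at 0.201 FPKM in that library, against 26.4 and 31.7 in replicates 1 and 2 and 0.414 to 0.876 on Day0.

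A receptor was called detectable on a day when all 3 libraries of that day exceeded 12 counts. By this rule 5 of the 10 receptors were detectable on Day0 (HTR1A, HTR1B, HTR1D, HTR2C and HTR3A), 2 on Day21 (HTR1D and HTR3A) and 0 on Day42. Of all genes in the table, 44.5% were detectable on Day0, 46.4% on Day21 and 20.6% on Day42, so the receptors' share was near that of all genes on Day0 and below it on both later days. HTR7 passed the limit in 2 of 3 Day0 libraries, HTR2A and HTR2C each in 1 Day21 library, and HTR1D, HTR2B, HTR2C and HTR7 each in 1 Day42 library. HTR1E and HTR1F passed it in no library. Summed over the 10 genes, the receptors stood at 15.7, 13.8 and 24.1 in the Day0 libraries, 9.12, 5.35 and 6.47 in the Day21 libraries, and 4.44, 10.2 and 2.05 in the Day42 libraries, in CPM, the count scaled by the library total. Most of the Day0 sum was HTR3A, with 741 of 919, 701 of 913 and 1165 of 1567 receptor counts.

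**Figure D1:**
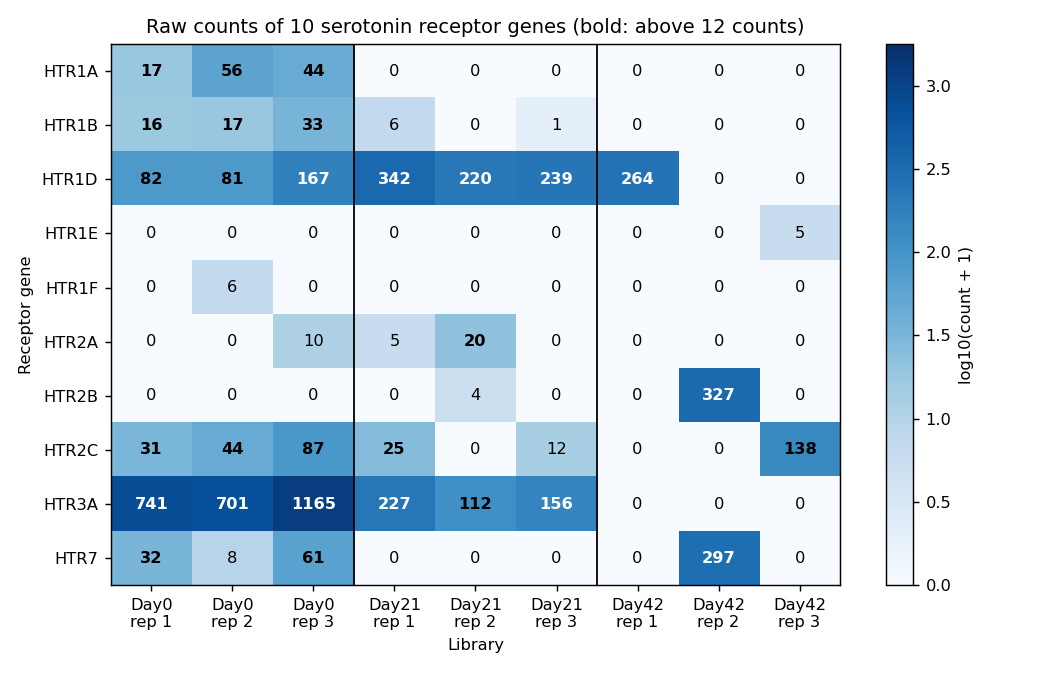
Raw counts of the 10 receptor genes (rows) in the 9 libraries (columns, ordered by day), with colour giving log10 of the count plus 1 and bold type marking counts above 12. HTR3A is the darkest row on Day0, with 741, 701 and 1165 counts, and the 4 bold cells on Day42 lie in 4 different rows, each beside 0 in the other Day42 libraries of that row.

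**Figure D2:**
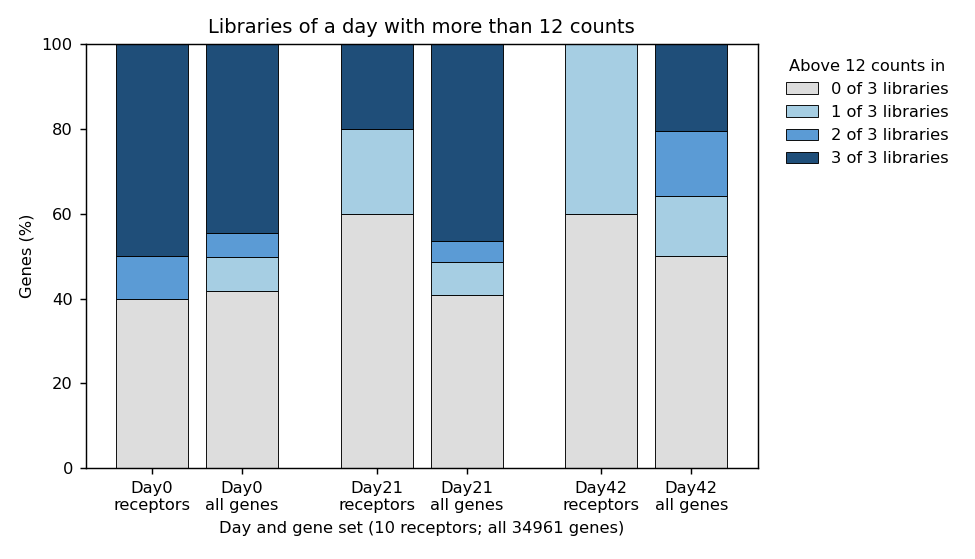
Share of genes (percent, y axis) above 12 counts in 0, 1, 2 or 3 libraries of a day, for the 10 receptors (left bar of each pair) and all 34961 genes (right bar). On Day42 no receptor reached 3 of 3 libraries, against 20.6% of all genes, and the 4 receptors above the limit were each above it in 1 library.

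HTR3A, the channel-forming subunit of the ionotropic receptor, was the receptor with the most counts on Day0. It had 741, 701 and 1165 counts in the Day0 libraries, 227, 112 and 156 in the Day21 libraries, and 0, 0 and 0 in the Day42 libraries, so the days did not overlap. In FPKM, a value per length and depth, it stood at 3.76, 3.14 and 5.23 on Day0 and at 0.958, 0.485 and 0.692 on Day21. Its mean FPKM was higher than that of 83.3% of the genes above 0 on Day0 and of 66.6% of those on Day21. In bulk RNA, fewer cells of a type and less RNA per cell cannot be told apart, here and in each result that follows.

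HTR1D, an inhibitory receptor found at axon endings, had 82, 81 and 167 counts on Day0, 342, 220 and 239 on Day21, then 264, 0 and 0 on Day42. All 3 Day21 libraries were above all 3 Day0 libraries. On Day42 replicate 1 alone held counts, and the other 2 libraries held none. Its FPKM was 0.403, 0.353 and 0.731 in the Day0 libraries, 1.41, 0.938 and 1.05 in the Day21 libraries and 1.33 in that Day42 library. Against the Day21 libraries, Day42 replicate 1 thus lay within their range in raw counts and FPKM, but below all 3 in CPM corrected with TMM scaling factors, at 3.38 CPM against 4.96, 4.02 and 4.32 CPM.

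The autoreceptor genes were low from the start. HTR1A had 17, 56 and 44 counts in the Day0 libraries, or 0.0515, 0.150 and 0.117 FPKM, and 0 counts in all 6 later libraries. HTR1B had 16, 17 and 33 counts on Day0, 6, 0 and 1 on Day21, then 0, 0 and 0 on Day42, so that only its Day0 values stood above the limit. HTR1E and HTR1F, further Gi/o-coupled members of the family, were close to empty rows. HTR1E had 5 counts in Day42 replicate 3 and HTR1F had 6 in Day0 replicate 2, both below 12 counts, and the remaining 8 libraries of each were at 0.

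Among the Gq-coupled receptors, HTR2C was counted on all days. It had 31, 44 and 87 counts on Day0, 25, 0 and 12 on Day21, then 0, 0 and 138 on Day42. The highest single value was therefore that of Day42 replicate 3, while the other 2 Day42 libraries fell below every Day0 library. HTR2B, known from mouse for its role in heart development, had 0 counts in all Day0 libraries, 0, 4 and 0 on Day21, and 0, 327 and 0 on Day42. HTR2A, the receptor through which classical psychedelics act, had 0, 0 and 10 counts on Day0, 5, 20 and 0 on Day21, then 0 in all Day42 libraries.

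HTR7, the Gs-coupled member, had 32, 8 and 61 counts on Day0, 0, 0 and 0 on Day21, then 0, 297 and 0 on Day42. It was the only one of the 10 genes at 0 throughout Day21 and above 12 counts in a library of each other day. Its FPKM values were 0.130, 0.0286 and 0.214 on Day0, and 1.19 in Day42 replicate 2.

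The 4 receptors seen in 1 Day42 library and at 0 in the other 2 did not share a library in all cases. HTR1D was counted in replicate 1, HTR2B and HTR7 in replicate 2, and HTR2C in replicate 3. The same pattern, 1 Day42 library above 12 counts and 0 in the other 2, was found in 11.1% of all genes (3875 of 34961), against 2.27% for the corresponding pattern on Day0 and 2.06% on Day21. Among genes above 12 counts in any library of the day, the share was 22.2% on Day42, against 3.9% on Day0 and 3.48% on Day21. By library, 1386 genes were found in replicate 1 alone, 2230 in replicate 2 alone and 259 in replicate 3 alone. Summed fibroblast or mesenchyme markers stood at 26.9, 52 and 17.9 FPKM in Day42 replicates 1, 2 and 3, with 6, 5 and 3 of 6 markers above 12 counts, and the highest value was in the library that held HTR2B and HTR7. LUM made up most of that value, at 14.8, 45.2 and 0 FPKM in replicates 1, 2 and 3. None of the other mesenchyme markers was highest in that library, COL3A1 standing at 8.67, 3.7 and 14.3 FPKM. Summed choroid plexus markers stood at 19.2, 16.4 and 35.7 FPKM in the same order, highest in the library that held HTR2C, a receptor known from that tissue. Only 2, 1 and 1 of those 5 markers exceeded 12 counts, TTR having 2894, 2577 and 6094 counts, while FOLR1, CLIC6 and AQP1 were at 0 in all 3 Day42 libraries and KL in replicates 2 and 3. The part of either marker list in the receptor counts was not tested. PSMD1, the proteasome gene that overlaps HTR2B on the opposite strand, had 24818, 19434 and 25549 counts in Day42 replicates 1, 2 and 3. Whether its reads entered the HTR2B count was not tested.

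**Figure D3:**
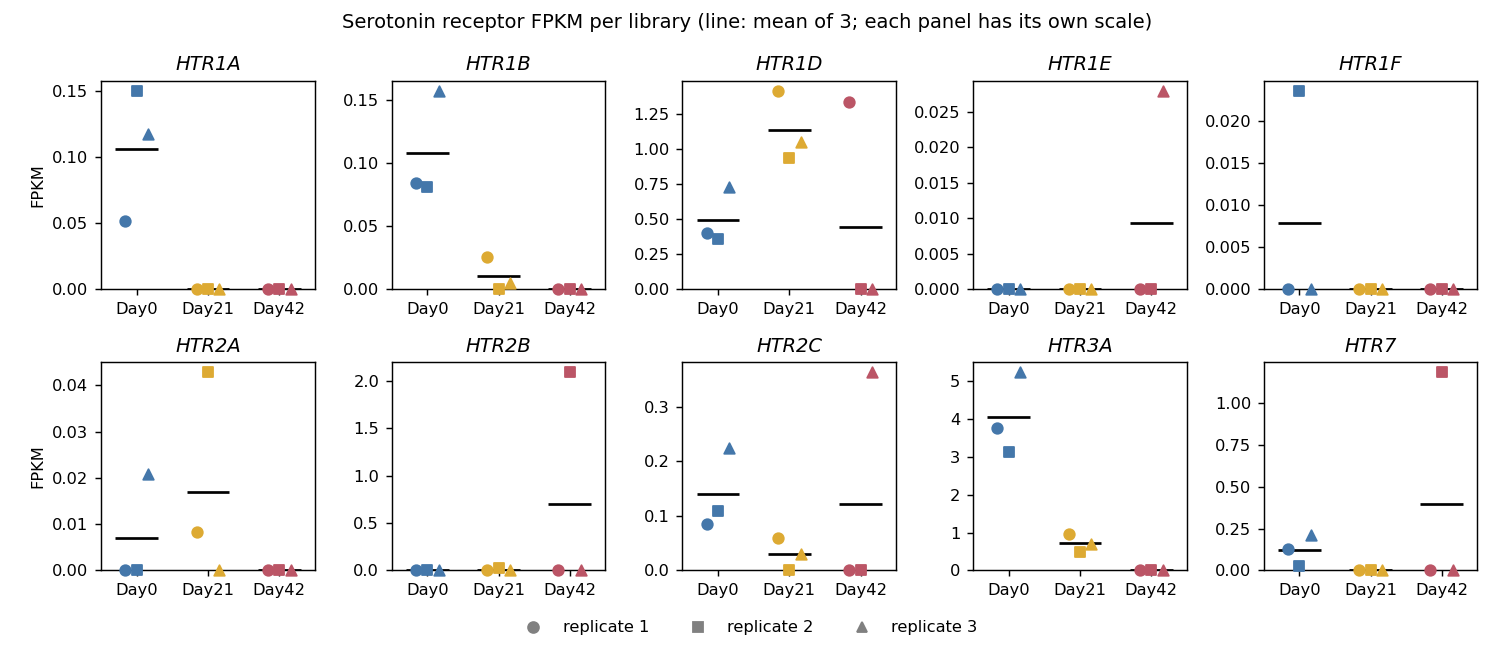
FPKM (y axis, a separate scale in each panel) of each receptor in the 3 libraries of Day0, Day21 and Day42, with the marker shape giving the replicate and the line the mean of 3. The 3 libraries of HTR3A are separated by day, whereas the Day42 means of HTR1D, HTR2B, HTR2C and HTR7 each come from 1 library above 0.

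Levels of different receptors were set in order by mean FPKM within a day. On Day0 the order was HTR3A (4.04 ± 1.08 FPKM), HTR1D (0.496 ± 0.205), HTR2C (0.140 ± 0.0740), HTR7 (0.124 ± 0.0927), HTR1B (0.107 ± 0.0429) and HTR1A (0.106 ± 0.0501; SD, n = 3 libraries each). HTR3A was 8.15-fold above HTR1D and HTR1D 3.55-fold above HTR2C, in both cases with no overlap between libraries. The libraries of HTR2C, HTR7, HTR1B and HTR1A overlapped between neighbours, so their order does not exceed the spread. On Day21 HTR1D came first (1.13 ± 0.250 FPKM) and HTR3A second (0.712 ± 0.237; SD, n = 3 each), with a ratio of 1.59 and overlapping libraries. HTR3A was 23.8-fold above the next, HTR2C, without overlap. On Day42 all neighbours overlapped, since each receptor with a value above 0 had it in 1 library.

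Changes between days were tested with edgeR's quasi-likelihood test on the counts of all 9 libraries, with Benjamini-Hochberg adjustment over the 20156 genes that passed the filter on low counts, and a call needed an adjusted p under 0.05 together with a log2 fold change of 1 or more in size. The filter kept HTR1A, HTR1B, HTR1D, HTR2C, HTR3A and HTR7, and left out HTR1E, HTR1F, HTR2A and HTR2B. Means below are CPM corrected with TMM scaling factors, given with the SD over 3 libraries. Where a day was at 0 in all libraries the fold is a lower bound as to counting error only, taken against 12 counts per library averaged over that day. It does not cover differences between libraries. Of genes above 12 counts in any Day42 library, 22.2% were above it in 1 library and at 0 in the other 2.

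Between Day21 and Day0 no receptor was called in either direction, against 1.32% of all genes called higher and 1.18% called lower. HTR3A averaged 2.72 ± 0.631 CPM on Day21 and 16.1 ± 3.17 CPM on Day0, a log2 fold change of -2.57 ± 0.69 (SE) with an edgeR adjusted p of 0.106. HTR1A was at 0 on Day21 and at 0.705 ± 0.318 CPM on Day0, at least 3.47-fold lower, with an edgeR adjusted p of 0.0517. Both were called in the same direction by the edgeR fit to these days alone, at adjusted p-values of 0.00105 for HTR3A and 0.00718 for HTR1A. That fit called 2459 of all 19541 genes tested lower, against 238 of 20156 in the fit to all 9 libraries. Leaving out Day42 replicate 3, a library that enters neither mean, also brought the edgeR adjusted p to 0.0109 for HTR3A and 0.0280 for HTR1A, which were then called. Of all 21827 genes tested without that library, 1460 were called lower, so calls rose over all genes too. The Day21 libraries lay below every Day0 library for both genes.

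For HTR1D, Day21 libraries averaged 4.43 ± 0.483 CPM and Day0 libraries 2.01 ± 0.645 CPM, a log2 fold change of 1.14 ± 2.05 (SE) with an edgeR adjusted p of 0.947. The large error comes with a spread shared over all days, which includes Day42 counts of 264, 0 and 0. In the fit to these days alone the log2 fold change of HTR1D was 1.13 ± 0.36 (SE) and the edgeR adjusted p 0.0509, which misses the threshold. HTR1B (0.0351 ± 0.0460 CPM on Day21, 0.402 ± 0.121 on Day0, log2 fold change -3.42 ± 1.30) had an edgeR adjusted p of 0.251 and HTR2C (0.193 ± 0.183 CPM on Day21, 0.971 ± 0.392 on Day0, -2.31 ± 2.29) one of 0.788. HTR7, at 0 on Day21 and 0.619 ± 0.433 CPM on Day0, was at least 3.04-fold lower with an edgeR adjusted p of 0.312. In all, 3 of the 6 receptors had an unadjusted edgeR p under 0.05 (HTR1A, HTR1B and HTR3A), and DESeq2 called 3 lower (HTR1A, HTR3A and HTR7). Of all 20156 genes tested, 3398 had an unadjusted edgeR p under 0.05, and DESeq2 called 1563 lower. The median fitted log2 fold change of the 6 was -2.99, or -2.05 with the genes at 0 set at their bounds, against 0.03 over all genes tested. The value over all genes is of fitted changes without bounds, so only -2.99 was computed alike.

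Between Day42 and Day21, HTR3A alone was called, lower on Day42. It was at 0 in the 3 Day42 libraries and at 2.72 ± 0.631 CPM on Day21, at least 18.6-fold lower, with an edgeR adjusted p of 0.00142. Leaving out each Day21 library in turn kept the bound between 16.7 and 21. No receptor was called higher, against 6.52% of all genes called higher and 19.7% called lower. HTR1D averaged 1.13 ± 1.95 CPM on Day42 and 4.43 ± 0.483 CPM on Day21, with a log2 fold change of -1.97 ± 2.09 (SE) and an edgeR adjusted p of 0.576. Without Day42 replicate 1, the library that held all its Day42 counts, HTR1D was at 0 on Day42 and was called lower, at an edgeR adjusted p of 0.00231. That direction was fixed by the choice of library.

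HTR7 averaged 1.17 ± 2.02 CPM on Day42, all from 1 library, and was at 0 on Day21, with an edgeR adjusted p of 0.119. It had an unadjusted edgeR p of 0.0418 and was called higher in 1 of 15 alternatives, DESeq2. The DESeq2 log2 fold change of 22.69 rests on that 1 library, the other Day42 counts and all Day21 counts being 0. HTR2C averaged 0.546 ± 0.945 CPM on Day42 and 0.193 ± 0.183 CPM on Day21, with a log2 fold change of 1.48 ± 2.23 (SE) and an edgeR adjusted p of 0.712. Its direction turned without Day42 replicate 3, which held all its Day42 counts, to a log2 fold change of -6.63 with an edgeR adjusted p of 0.0573. HTR1B was at or under the limit on both days and HTR1A at 0 on both, so no fold is given. The median log2 fold change of the 4 receptors with a fold was -0.24 when genes at 0 were set at their bounds. Over all genes tested the median of the fitted values was -0.54, which uses no bounds and leaves out no gene, so the 2 medians are not alike.

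Between Day42 and Day0, 3 receptors were called lower and none higher, against 23.4% of all genes called lower and 8.82% called higher. HTR3A was at 0 on Day42 and at 16.1 ± 3.17 CPM on Day0, at least 110-fold lower, with an edgeR adjusted p of 0.000591. HTR1A was at 0 on Day42 and at 0.705 ± 0.318 CPM on Day0, at least 4.83-fold lower, with an edgeR adjusted p of 0.0107. HTR1B was at 0 on Day42 and at 0.402 ± 0.121 CPM on Day0, at least 2.75-fold lower, with an edgeR adjusted p of 0.0128. Both autoreceptor genes were thus at 0 in all 3 libraries in which 5 of 6 serotonin neuron markers exceeded 12 counts. Over all genes detectable on Day0, 11.85% were at 0 in all Day42 libraries and 44.09% were detectable there, against 3 and 0 of the 5 detectable receptors.

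Those calls held unevenly across settings. HTR3A was called lower in 17 of 17 alternatives, and HTR1A and HTR1B each in 14 of 16, both being lost under the replicate block and with limma on log2(FPKM + 1). No unadjusted edgeR p under 0.05 was found for the other 3 receptors. HTR1D averaged 1.13 ± 1.95 CPM on Day42 and 2.01 ± 0.645 CPM on Day0 (log2 fold change -0.83 ± 2.04, edgeR adjusted p = 0.811), HTR2C 0.546 ± 0.945 and 0.971 ± 0.392 CPM (-0.83 ± 2.19, 0.827), and HTR7 1.17 ± 2.02 and 0.619 ± 0.433 CPM (0.91 ± 2.42, 0.83). Each of these 3 was called lower when the library that held its Day42 counts was left out, at edgeR adjusted p-values of 0.00209 for HTR1D without replicate 1, 0.0230 for HTR2C without replicate 3 and 0.0347 for HTR7 without replicate 2. The library left out was chosen by those counts, and the gene is then at 0 on Day42. The lower direction was therefore fixed in advance, and these fits show only that the Day42 level rests on that library. HTR2B, not tested, averaged 1.29 ± 2.23 CPM on Day42 and 0 on Day0. The median fitted log2 fold change of the 6 was -4.28, or -1.15 with genes at 0 set at their bounds, against -0.57 over all genes tested. Here too the value over all genes uses no bounds, so only -4.28 was computed alike.

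**Figure D4:**
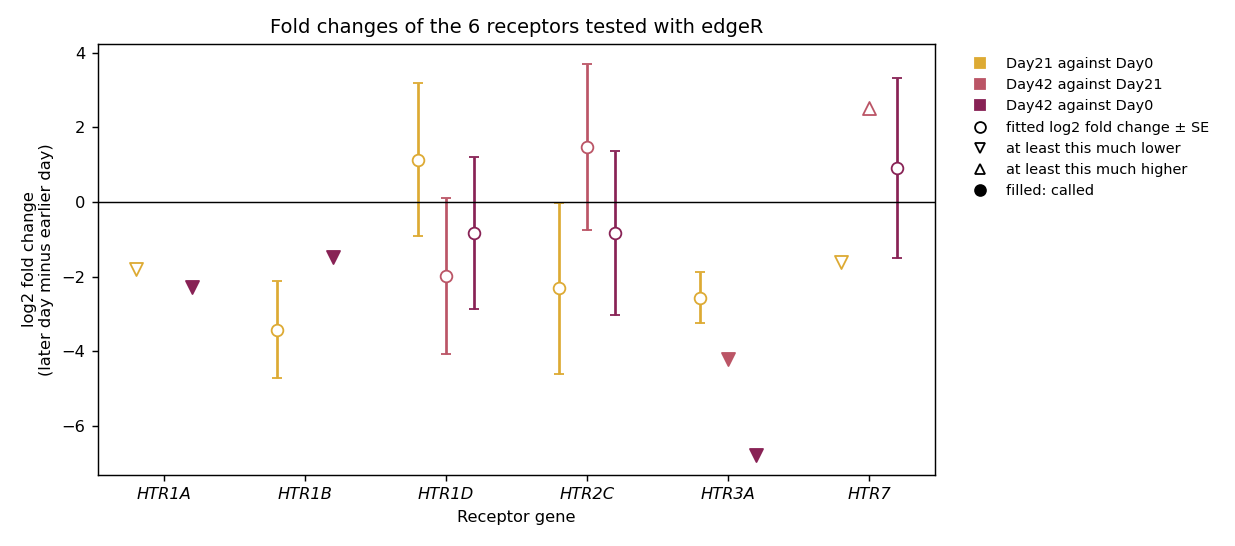
Log2 fold change (y axis, later day minus earlier day) of the 6 tested receptors, by comparison (colour). Circles are fitted values with their SE, and triangles are bounds as to counting error where a day was at 0 in all libraries. Filled symbols were called, which are HTR1A, HTR1B and HTR3A between Day42 and Day0 and HTR3A between Day42 and Day21.

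Serotonin receptor genes outside the 10 were seldom counted. Of HTR3B, HTR3C, HTR3D, HTR4, HTR5A and HTR6, none passed the filter for the test. HTR6, a Gs-coupled receptor, had 23 counts in Day0 replicate 3, HTR3C had 4, 0 and 13 counts on Day0, and HTR3B, which pairs with HTR3A in the ion channel, had 14 counts in Day21 replicate 3. HTR5A, HTR4 and HTR3D had at most 6 counts in any library, and all 6 were at 0 throughout Day42. The pseudogene HTR7P1 had 114, 57 and 78 counts on Day0, 27, 25 and 65 on Day21 and 0 in the 3 Day42 libraries, so it was above 12 counts in all Day21 libraries, in which HTR7 was at 0, and at 0 in the Day42 library with 297 counts of HTR7. The pseudogene HTR1DP1 had 4 counts in a single Day0 library. Reads of a receptor and of its pseudogene copy may be divided between them by the counting, so both are uncertain to that extent.

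Genes of the proteins that carry a receptor's signal were described by lists. Of 35 such genes, from G protein subunits to RGS proteins, 30 exceeded 12 counts in Day42 replicate 1, 30 in replicate 2 and 16 in replicate 3, against 29 to 30 in the Day21 libraries and 29 to 32 in the Day0 libraries. In Day42 replicate 3, 14 of them were at 0, among them GNA11, GNAL and PLCB4, which had 1481 and 1008, 1122 and 2348, and 1467 and 2055 counts in replicates 1 and 2. That library was low over all genes too, with 23.4% above 12 counts against 39.9% and 43% in the other 2.

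Of 5 Gi/o alpha subunits, the partners of the HTR1 family, edgeR called 4 higher and none lower between Day42 and Day0, 3 higher and 1 lower between Day42 and Day21, and 1 higher between Day21 and Day0, the shares of all genes called higher being 8.82%, 6.52% and 1.32%, and that called lower 19.7% between Day42 and Day21. GNAO1, the main Go subunit of neurons, averaged 20.1 ± 21.7 CPM on Day42 and 0.720 ± 0.137 CPM on Day21, with counts of 905, 335 and 3772 on Day42 and 60, 33 and 38 on Day21 (log2 fold change 4.80 ± 1.01, edgeR adjusted p = 0.00952). GNAI1 rose to 80.5 ± 15.3 CPM on Day21, against 25.0 ± 2.69 CPM on Day0 (1.68 ± 0.30, edgeR adjusted p = 0.0256), a call that was lost in 9 of 17 alternatives. GNAI2 fell to 66.6 ± 23.2 CPM on Day42, against 215 ± 49.6 CPM on Day21 (-1.69 ± 0.42, edgeR adjusted p = 0.0185), and GNAZ averaged 35.0 ± 18.4 CPM on Day42 and 0.818 ± 0.709 CPM on Day0 (5.41 ± 1.51, edgeR adjusted p = 0.0253). With a library left out, edgeR lost the GNAI1 call for any Day0 or Day21 library (adjusted p 0.0713 to 0.157) and the GNAI2 call for Day21 replicate 1 or 2 or Day42 replicate 2 (0.0731, 0.0539 and 0.0545). Likewise edgeR lost the GNAO1 call without Day21 replicate 2 (adjusted p = 0.0522) and the GNAZ call without Day0 replicate 2 or 3 (0.0742 and 0.0725). The median log2 fold change of the 5 between Day42 and Day0 was 3.11, against -0.57 over all genes.

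Of 6 genes for Gq subunits and phospholipase C beta, through which HTR2 receptors act, edgeR called 2 higher and none lower in each comparison with Day42, where 8.82% (against Day0) and 6.52% (against Day21) of all genes were called higher. Between Day21 and Day0 edgeR called none, 0 had an unadjusted p under 0.05 and DESeq2 called 0. GNAQ averaged 49.7 ± 20.2 CPM on Day42 and 8.30 ± 0.224 CPM on Day21 (log2 fold change 2.58 ± 0.47, edgeR adjusted p = 0.00491), with all 3 Day42 libraries above all 3 Day21 libraries. PLCB1 averaged 28.9 ± 26.4 CPM on Day42 and 2.46 ± 0.401 CPM on Day0 (3.56 ± 0.78, edgeR adjusted p = 0.00923). Against the 3.99 ± 0.889 CPM of Day21 (2.86 ± 0.76, edgeR adjusted p = 0.0242), PLCB1 was no longer called in 6 of 16 alternatives, including each fit without a Day21 library (edgeR adjusted p 0.0719 to 0.103). The median log2 fold change of the 6 between Day42 and Day0 was 2.16, against -0.57 over all genes.

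Of 10 genes for Gs subunits and adenylyl cyclases, on which HTR7 acts, edgeR called 1 higher and 1 lower between Day42 and Day0, against 8.82% of all genes higher and 23.4% lower, so its shares of 1 in 10 were near or below those of all genes. It called 2 higher and 1 lower between Day42 and Day21, against 6.52% and 19.7% of all genes, and none between Day21 and Day0, where 3 had an unadjusted p under 0.05 and DESeq2 called 2. Of all 20156 genes tested between Day21 and Day0, 3398 had an unadjusted edgeR p under 0.05, and DESeq2 called 2952. GNAS averaged 1496 ± 148 CPM on Day42 and 455 ± 56.5 CPM on Day0 (log2 fold change 1.72 ± 0.21, edgeR adjusted p = 0.00087). ADCY7 was at 0 in the 3 Day42 libraries and at 1.41 ± 0.515 CPM on Day21, at least 9.69-fold lower (edgeR adjusted p = 0.00721). ADCY2 averaged 43.6 ± 24.0 CPM on Day42 and 6.63 ± 3.20 CPM on Day21 (2.72 ± 0.67, edgeR adjusted p = 0.0179), a call lost without Day21 replicate 2 or 3 (edgeR adjusted p of 0.0765 and 0.0751).

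KCNJ6, a subunit of the GIRK potassium channels that Gi/o-coupled receptors open, was called higher on Day42 in both comparisons. Day0 libraries held 37, 73 and 100 of its counts, Day21 libraries 193, 148 and 147, and Day42 libraries 6665, 13468 and 15056, so no libraries of different days overlapped. It averaged 141 ± 49.1 CPM on Day42 and 2.72 ± 0.0735 CPM on Day21 (log2 fold change 5.69 ± 0.48, edgeR adjusted p = 0.000316), and was called in 17 of 17 alternatives. Of the other GIRK genes, KCNJ3 and KCNJ9 did not pass the filter, and KCNJ5 had 0, 352 and 0 counts on Day42, the same single library that held HTR2B and HTR7. Of 10 receptor kinases, arrestins and RGS proteins, which end a receptor's signal, edgeR called 4 higher and none lower between Day42 and Day0, against 8.82% of all genes higher, and 3 higher between Day42 and Day21, against 6.52%. The call of GRK5, a receptor kinase with 699, 793 and 8 counts on Day42 and 16, 20 and 13 on Day0 (edgeR adjusted p = 0.0439), was lost with any library left out except Day42 replicate 3 (edgeR adjusted p 0.0697 to 0.138). RGS4 averaged 87.7 ± 58.5 CPM on Day42 and 2.67 ± 0.717 CPM on Day21 (5.03 ± 0.96, edgeR adjusted p = 0.00602), and RGS7 31.4 ± 29.3 CPM on Day42 and 0.163 ± 0.113 CPM on Day21 (7.57 ± 1.19, edgeR adjusted p = 0.00317).

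Of 4 genes for receptor partners, edgeR called 2 lower between Day42 and Day0, where 23.4% of all genes were called lower. It called 1 lower between Day42 and Day21, which is near the 19.7% of all genes, and 1 lower between Day21 and Day0, where the share was 1.18%, and none higher in any comparison. S100A10, also called p11, which binds HTR1B and brings it to the cell surface, fell to 69.9 ± 4.95 CPM on Day21, against 398 ± 15.7 CPM on Day0 (log2 fold change -2.51 ± 0.27, edgeR adjusted p = 0.00291). On Day42 it averaged 52.6 ± 15.8 CPM (-2.92 ± 0.27 against Day0, edgeR adjusted p = 0.000305). DLG4, a synaptic scaffold that binds HTR2A and HTR2C, had 0, 1 and 4 counts on Day42 and 78, 58 and 63 on Day21 (-5.67 ± 1.40, edgeR adjusted p = 0.0179), a call lost with any Day21 library left out (edgeR adjusted p 0.0534 to 0.0541). Its call against Day0 was lost without Day0 replicate 3 (edgeR adjusted p = 0.0526). RIC3, a chaperone of the HTR3 channel, had 1805, 2882 and 0 counts on Day42, and was not called in any comparison.

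Of the 7 tested genes that make, move or break down serotonin, edgeR called 6 higher and 1 lower between Day42 and Day0, against 8.82% and 23.4% of all genes. With each library left out in turn, 4 of these 7 calls held throughout. DDC, the decarboxylase that completes serotonin synthesis, averaged 332 ± 68.9 CPM on Day42 and was at 0 on Day0, at least 1461-fold higher (edgeR adjusted p = 3.82e-05). SLC18A1, a vesicular monoamine transporter, had 0, 334 and 5820 counts on Day42 and 0 in all Day0 libraries, and it was called (edgeR adjusted p = 0.0350) in 6 of 15 alternatives but not in any fit without a Day0 or a Day21 library (0.0669 to 0.0851). SLC18A2, the vesicular transporter of monoamine neurons, had 7596, 9399 and 65 counts on Day42 and 122, 291 and 179 on Day0. Its call (edgeR adjusted p = 0.0489) was lost with any library left out except Day42 replicate 3 (0.0701 to 0.152). MAOA, a monoamine oxidase, had 0, 4 and 0 counts on Day42 and 30, 56 and 136 on Day0, and its lower call (edgeR adjusted p = 0.0200) was lost without Day0 replicate 3 (0.0575).

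Between Day42 and Day21, edgeR called 5 of those 7 genes higher and 1 lower, against 6.52% and 19.7% of all genes, and 4 of the 6 calls held with each library left out. TPH2, the enzyme of serotonin synthesis in neurons, averaged 112 ± 22.0 CPM on Day42 and 0.0485 ± 0.0420 CPM on Day21 (log2 fold change 11.16 ± 1.26, edgeR adjusted p = 0.000984). MAOB, a second monoamine oxidase, had 10561, 10957 and 15485 counts on Day42 and 6, 8 and 5 on Day21. Its log2 fold change was 10.42 ± 0.50 (edgeR adjusted p = 6.14e-05), and it was called in 17 of 17 alternatives. The other 2 calls were lost with any Day21 library left out, TPH1 also without Day0 replicate 2 or 3 (edgeR adjusted p 0.0587 to 0.126) and MAOA also without Day0 replicate 1 or 2 (0.0511 to 0.0795).

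**Figure D5:**
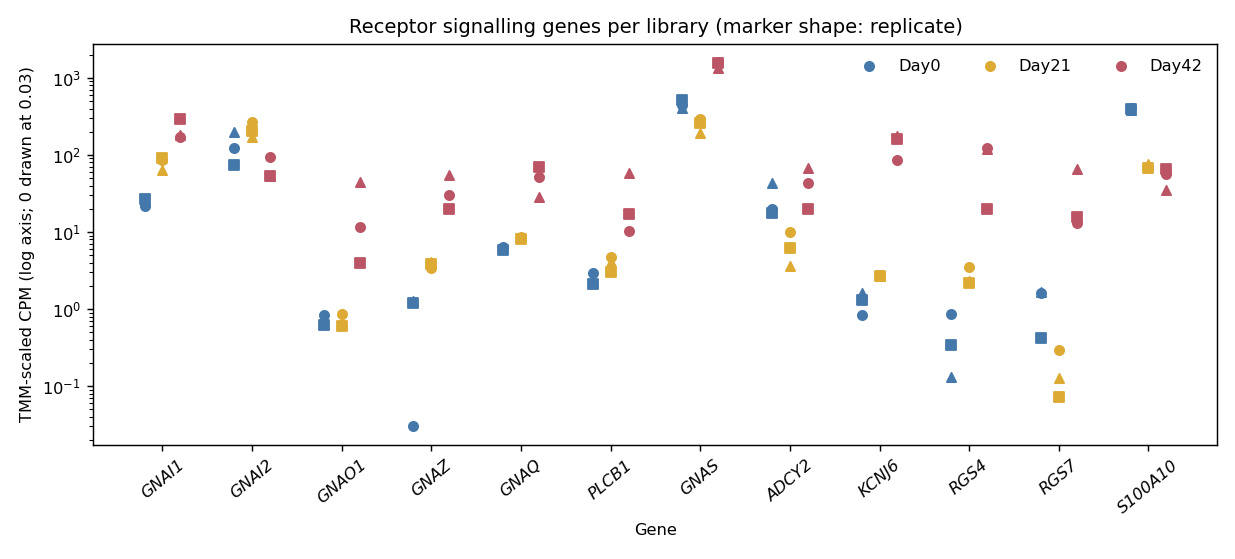
TMM-scaled CPM (log axis, with 0 drawn at 0.03) of 12 signalling genes in each library, coloured by day, with a circle, square or triangle for replicate 1, 2 or 3. KCNJ6 stands at 141 ± 49.1 CPM on Day42 against 2.72 ± 0.0735 CPM on Day21, while S100A10 stands at 52.6 ± 15.8 CPM on Day42 against 398 ± 15.7 CPM on Day0.

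For each tested receptor, the genes with the most similar profile over the 9 libraries were found by Pearson correlation of log2 CPM, as a description. All 9 points share their library and depth, and genes at 0 in the same libraries correlate strongly. HTR3A was closest to CHST6, MREG and RHOD (r = 0.999 each), and 74 genes exceeded 0.99. CHST6 had 300, 287 and 357 counts on Day0, 95, 48 and 66 on Day21 and 0 on Day42. HTR1A was closest to AC093627, FAM124B and FBXL21P, and 78 genes exceeded 0.99. FAM124B had 25, 81 and 65 counts on Day0 and 0 in all 6 later libraries. HTR1B was closest to EXOC3L2, MAP3K21 and PLAAT5 (r = 0.996, 0.995 and 0.993).

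HTR1D was closest to ST6GALNAC5, PLCD1 and AC092070 (r = 0.998, 0.997 and 0.996). ST6GALNAC5 had 220, 216 and 325 counts on Day0, 778, 484 and 505 on Day21, then 675, 0 and 0 on Day42, so it shared the single Day42 library with HTR1D. HTR7 was closest to AL356804, KRT42P and AL359764 (r = 0.995, 0.988 and 0.983), and AL356804 had 0, 398 and 0 counts on Day42, in the library that held HTR7. HTR2C had the least close neighbours, PUS3, TLE2 and PNN (r = 0.949, 0.934 and 0.927), and TLE2 had 0, 0 and 2475 counts on Day42.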

How the data were processed

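RNA was sequenced from 3 libraries on each of Day0, Day21 and Day42. Per the labels' protocols, Trizol RNA, about 10 ng per library, was prepared with a NEBNext low-input kit. GRCh38, cutadapt 1.9 and FastQC are named, per the submitters' processing notes. The sources used here do not give the aligner, the counter, its strand setting or the annotation. Raw counts per gene were deposited by the authors, per the file headers, and their sums differ between libraries. The same table holds the authors' FPKM, fragments scaled by gene length and depth, used here for levels between genes and in limma. Column names gave the library of each column, and 0 columns were left over.

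Counts of 4 occurred 2.17 times as often as the mean of their neighbours, a step whose cause was not tested, and the limit of a count of 0 was set at 12. Counts were filtered with filterByExpr, scaled by TMM and fitted with 1 mean per day over all 9 libraries in edgeR 4.0.16 (R 4.3.3; 6 residual degrees of freedom, prior 2.42). The procedure was tested on simulated data. Those data had the same spread set for every gene, and did not imitate genes counted in 1 Day42 library and at 0 in the others. Log2 CPM for profiles used a prior count of 2. DESeq2 1.42.0, limma 3.58.1 on log2(FPKM + 1) and log2(FPKM + 0.1), median-of-ratios scaling, other filters, fits to 2 days, a replicate block and each library left out served as alternatives. Tables and figures were made in Python 3.11.15 with matplotlib 3.10.9, numpy 2.4.6 and pandas 2.3.3. Promoters came from RefSeq on GRCh38.p14.

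Members, gene lists and markers were chosen with earlier results of these data known. Signalling genes named are up to 2 per list and comparison, namely those called with the largest change, or the most abundant gene of a list without a call. For each tested receptor the 3 closest profiles are named. The remaining receptors, pseudogenes, overlapping genes, RIC3, GNA11, GNAL, PLCB4, GRK5, SLC18A2, MAOA, TPH1, LUM, COL3A1, FABP7, the choroid plexus and catecholamine neuron markers and the other GIRK genes were named after their values were seen. HTR3E was not analysed here. Of the signalling genes named, DLG4, GNAI2, GNAO1, PLCB1, GNAS, ADCY7, KCNJ6, RGS7, TPH2, DDC, GNAL, GRK5 and TPH1 overlap another GENCODE release 29 model on the same strand, and their counts are uncertain.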

Additional observations from a re-analysis of the deposited data

How the results depend on the processing

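The count of receptors called depended on the setting. Between Day21 and Day0 it was 0 with edgeR, 2 in the fit to these days alone, 1 with limma on log2(FPKM + 1), 2 with limma on log2(FPKM + 0.1), 3 with DESeq2 and 0 to 2 with each library left out in turn, the 2 arising without Day42 replicate 3. Between Day42 and Day21 it was 1 with edgeR, 0 with limma on log2(FPKM + 1), 2 with DESeq2 and 1 to 2 with each library left out, the 2 arising without Day42 replicate 1. Between Day42 and Day0 it was 3, but 1 with genes of an FPKM of at least 1 in 3 libraries, 1 under the replicate block and 1 with limma on log2(FPKM + 1). HTR1A and HTR1B were then lost at adjusted p-values of 0.119 and 0.0596 under the block and 0.176 and 0.164 with limma. The cause was not tested, except that the FPKM filter left both out of the test. Directions turned for HTR2C between Day42 and Day21, to -0.57 under the replicate block and -6.63 without Day42 replicate 3 (up to 2.43 with other libraries left out), and for HTR7 between Day42 and Day0, to -4.67 under the block and -8.27 without Day42 replicate 2 (up to 1.49 with others left out). The HTR2C and HTR7 values without a library follow from removing all Day42 counts of the gene. The number of all genes called fell under the block to 109, against 504, between Day21 and Day0, to 2420, against 5295, between Day42 and Day21, and to 3710, against 6499, between Day42 and Day0. Same-numbered libraries of different days correlated at -0.225 to 0.0266 in their deviations. The labels give these numbers no shared batch or day, and whether one exists was not tested. Between Day21 and Day0 the number of all genes called was 5009 in the fit to these days alone, 2952 with DESeq2, 881 with the FPKM filter, 1323 and 2530 with limma at pseudocounts of 1 and 0.1, and 133 to 2894 with each library left out, the highest without Day42 replicate 3. With the FPKM filter it was 3095 between Day42 and Day21 and 3754 between Day42 and Day0, and without Day21 replicate 2 or 3 it was 3301 and 3423 between Day42 and Day21. Detectable receptors on Day0 numbered 2 at an FPKM of at least 0.1 in all libraries, against 5. In the order by FPKM, the receptors that changed place with a library left out numbered 3 to 4 on Day0, 0 to 4 on Day21 and 2 to 5 on Day42. With CPM per GENCODE exonic base, chosen after seeing the data, 3 changed place on Day0. The planned division by the table's own gene length was not run, since the table used here gives no such length. Depth limits the receptors with few counts, since a level under 12 counts in a library would not be seen.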
